A study of Mus musculus with 19 samples.

Results

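The Rab GTPases of mouse neutrophils were followed through 74 array probes of 51 genes. They were drawn from the 17004 probes of the deposited normalized table. Every probe whose annotated gene symbol is Rab followed by a number and at most 1 letter was taken. Within that table the choice went by symbol alone, though it was made with earlier results of these data known. All 74 symbols matched those of RefSeq. Of the 74 probes, 68 (47 genes) had a detected signal on 3 or more arrays and were tested, which is 91.9% against 82% of all probes with a gene symbol. The 6 others were both probes of Rab27b (detected on no array), 1 of 2 probes of Rab13, and the single probes of Rab30, Rab40b and Rab42 (each detected on 1 or 2 arrays). Because a probe passed wherever 3 arrays detected it, the tested probes are not the whole family.

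The study profiled total RNA of neutrophil preparations on 1-colour Illumina BeadChip arrays, 19 arrays in all, to compare neutrophils of bone marrow, spleen and tumour and the effect of SM16, an inhibitor of the kinase of the type I TGF-beta receptor (Alk5), on those of the tumour. The groups were naive neutrophils of the bone marrow (NN, n = 7), spleen neutrophils of mice bearing tumours (n = 4, titled G-MDSC for granulocytic myeloid-derived suppressor cells), 3 tumour-associated preparations (TAN, replicates 1, 2 and 4) and 5 of TANs after SM16 treatment (SM16). The labels give every sample the description "clonal mouse" and name no strain, genotype, age, tumour line, dose or time, and they do not say that replicates came from separate animals. The p-values therefore measure only the spread between these samples, which may be technical.

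Rab proteins are small GTPases that mark the membranes of the cell. An activator (a guanine nucleotide exchange factor) loads a Rab with GTP on a given membrane, the GTP-bound Rab recruits effectors that move, tether or dock vesicles, and an inactivator (a GTPase-activating protein) ends the cycle, after which GDI proteins carry the lipid-anchored Rab back through the cytosol. In neutrophils, granules are delivered to the phagosome and the cell surface in an order that depends on Rab27a and other secretory Rabs, while Rab5 and Rab7 act in turn on the maturing phagosome.

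All levels below are log2 intensities after background correction and quantile normalization, given as mean ± SD where several arrays are summarised, and every adjusted p comes from limma's model of all 4 groups with Benjamini-Hochberg adjustment over the 13945 probes tested. A probe was called at an adjusted p under 0.05. A fold is written "at least" where no array of the dimmer group detected the probe. Some values are given with TAN replicate 4 as the only TAN array. That group then has no spread of its own, and its adjusted p assumes that a single array varies like the arrays of the other groups. Levels of different probes are not set against each other, because each probe has its own brightness. The most intense member, Rab8b, reached 37.7% of the highest signal of its array, so no member stood at the top of the measured range.

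The arrays had 3 features that bear on the family. The dimmest value of an array fell into 2 ranges, 10.3 to 17.7 for the G-MDSC group and NN replicates 6 and 7, and 47.5 to 65.5 for the rest, and the labels name no such split. TAN replicates 1 and 2 separated probes of the same gene. Of 26 pairs of Rab probes that share a gene, the difference within a pair departed by over 2 log2 units from the SM16 mean for 7 pairs on each of TAN replicates 1 and 2 and for 0 pairs on TAN replicate 4. It did so for 1 to 4 pairs on the NN and G-MDSC arrays. Marker lists of other cells also moved with the groups. The summed intensity of 9 macrophage and monocyte genes (11 probes) was 7190 to 14900 in NN, 8710 to 11600 in G-MDSC, 24900, 32500 and 92000 on TAN replicates 1, 2 and 4, and 106000 to 178000 in SM16, and each of the 9 genes was detected on some array of every group. Those of 13 neutrophil genes were 505000 to 537000, 417000 to 447000, 203000 to 248000 and 211000 to 295000 in the same order of groups, and Elane and Mpo, a protease and the peroxidase of azurophil granules, were detected on no SM16 array. Sums of 5 erythroid genes were 106000 to 122000 in NN, 2340 to 14700 in G-MDSC, 1150 to 1530 in TAN and 480 to 905 in SM16, and those of 10 platelet genes were 27700 to 64200, 508 to 649, 5680 to 8100 and 11900 to 18300. The part of these cells in the Rab results was not tested, and in such bulk RNA fewer cells of a type and less RNA per cell cannot be told apart.

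Rab3d, Rab11a and Rab28 fell and Rab15, Rab7b and Rab33a rose by more than 2-fold in both tumour groups against marrow neutrophils, and more Rab probes were called lower than higher. In TAN against NN 13 of 68 Rab probes were called higher and 29 lower (19.1% and 42.6%), beside 34.9% higher and 33.1% lower among all probes tested. The median log2 change was -0.21 for the Rab probes and 0.054 for all probes. In SM16 against NN 18 were higher and 26 lower, beside 29.9% and 32.5% of all probes, with medians of -0.11 and -0.039. In TAN against G-MDSC 13 were higher and 31 lower, beside 32.9% and 30.1%, with medians of -0.39 and 0.044. The share of all Rab probes called, 61.8%, 64.7% and 64.7% in these 3 comparisons, was close to that of all probes (68%, 62.4% and 63%). In both comparisons of TAN the split between directions moved with the scaling. With median scaling in place of quantile normalization, which moved the median of all probes in TAN against NN to 0.37, 22 Rab probes were higher and 18 lower, beside 41.4% and 25.1% of all probes. In TAN against G-MDSC the median of all probes moved to 0.39 and the counts became 16 higher and 18 lower (41.2% and 21.8% of all probes). In SM16 against NN median scaling gave 16 higher and 26 lower, close to the counts above. The groups' arrays did not overlap for 32 Rab probes in TAN against NN, 34 in SM16 against NN and 36 in TAN against G-MDSC, beside 51%, 52% and 48.8% of all probes.

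**Figure D1:**
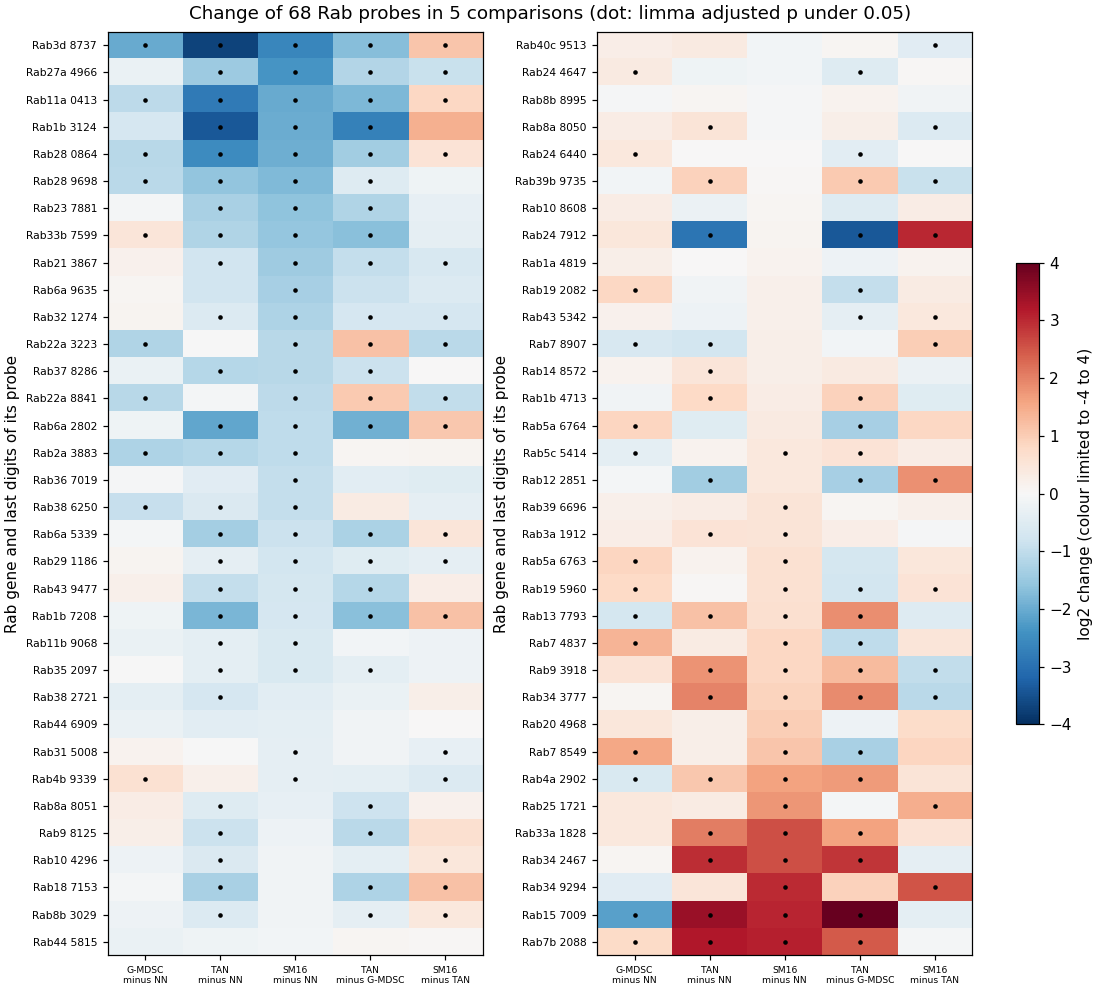
Log2 change (colour) of each of the 68 tested Rab probes (rows of the left and then the right panel, gene and last digits of the probe, sorted by SM16 minus NN) in 5 comparisons (columns), with a dot where limma's adjusted p was under 0.05. The Rab3d, Rab27a, Rab11a and Rab28 probes at the top left were lower in both tumour groups than in NN, and the Rab7b, Rab15, Rab33a and Rab34 probes at the bottom right were higher in SM16 than in NN.

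The secretory Rabs held the deepest fall of the family in TAN. Rab3d, which sits on secretory granules and takes part in their release, read 13.16 to 13.76 (median 13.51) on the 7 NN arrays, 11.18, 11.76, 11.40 and 11.60 on the 4 G-MDSC arrays, 10.12, 10.09 and 9.16 on TAN replicates 1, 2 and 4, and 11.05, 11.46, 10.14, 10.65 and 11.22 on the 5 SM16 arrays. Every array outside the marrow group was lower than every NN array, and no TAN array reached the lowest SM16 array. Rab3d was 13.1-fold lower in TAN than in NN (log2 change -3.71, SE 0.24, adjusted p = 1.01e-10), 6.06-fold lower in SM16 (log2 change -2.60, SE 0.21, adjusted p = 1.17e-09) and 4.06-fold lower in G-MDSC (log2 change -2.02, SE 0.22, adjusted p = 3.21e-07). TAN also lay below G-MDSC (log2 change -1.69, SE 0.27, adjusted p = 3.01e-05). With only TAN replicate 4 as the TAN group the change against NN was -4.34 (adjusted p = 6.92e-09).

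The 250 bases upstream of the Rab3d transcript start (RefSeq, GRCm38.p6, chr9:21918184-21918433, minus strand, 69.2% G and C) are shown with those of Rab28 and Rab15 because Rab3d had the deepest fall in TAN, Rab15 had the largest rise there, and Rab28 fell on both probes in all 3 groups outside the marrow. Capitals mark a match to 1 of 5 motifs searched on both strands: CACGTG (E-box), TTGCNNAA (C/EBP), GAGGAAGT (PU.1), TGANTCA (AP-1) and GGG, any 2 bases and TTTCC (NF-kB). The Rab28 window is chr5:41708180-41708429 (minus strand, 50.4% G and C) and holds the NF-kB letters in the last 10 bases before the start. For Rab15 the table has 4 windows, and the outermost one is shown (chr12:76822525-76822774, minus strand, 75.2% G and C).
Rab3d: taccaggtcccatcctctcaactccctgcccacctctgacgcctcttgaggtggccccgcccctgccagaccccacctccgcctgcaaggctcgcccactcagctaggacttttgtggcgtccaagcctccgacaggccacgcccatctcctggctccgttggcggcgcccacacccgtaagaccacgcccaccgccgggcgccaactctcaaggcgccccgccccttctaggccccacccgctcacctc
Rab28: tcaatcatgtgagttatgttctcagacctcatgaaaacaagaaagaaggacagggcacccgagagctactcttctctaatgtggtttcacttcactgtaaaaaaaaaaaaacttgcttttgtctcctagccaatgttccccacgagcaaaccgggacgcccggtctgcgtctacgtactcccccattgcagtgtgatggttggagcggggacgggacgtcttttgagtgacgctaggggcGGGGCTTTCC
Rab15: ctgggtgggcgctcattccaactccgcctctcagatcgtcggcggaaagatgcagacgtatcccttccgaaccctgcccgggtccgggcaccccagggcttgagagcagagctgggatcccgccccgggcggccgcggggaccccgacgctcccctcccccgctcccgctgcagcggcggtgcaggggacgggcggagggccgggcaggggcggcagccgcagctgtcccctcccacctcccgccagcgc
Of the 47 tested Rab genes 39 had windows in the table, 51 in all, with a median G and C content of 60.8% against 52.4% over all 32851 windows. The E-box was in 9.8% of the Rab windows and 6.02% of all windows (Rab5a, Rab20, Rab21, Rab23 and Rab27a), the C/EBP letters in 5.88% and 9.56% (Rab1b, Rab29 and Rab43), and the PU.1 letters in 1.96% and 2.44% (Rab32). The AP-1 letters were in 3.92% and 6.75% (Rab15 and Rab34) and the NF-kB letters in 5.88% and 1.41% (Rab9, Rab15 and Rab28), with those of Rab15 in its other windows. Such matches describe the letters of a window and show neither binding nor control.

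Rab27a, which docks azurophil and other granules at the plasma membrane, fell in the tumour groups. Its levels were 13.18 to 13.64 (median 13.59) in NN, 13.10, 13.31, 13.19 and 13.19 in G-MDSC, 12.62, 12.36 and 11.07 on TAN replicates 1, 2 and 4 and 10.90, 10.79, 11.73, 11.40 and 10.74 in SM16. All TAN and SM16 arrays lay below all NN and G-MDSC arrays, and TAN replicate 4 lay among the SM16 arrays. Rab27a was 2.75-fold lower in TAN than in NN (log2 change -1.46, SE 0.25, adjusted p = 4.97e-05), 5.14-fold lower in SM16 than in NN (log2 change -2.36, SE 0.22, adjusted p = 9.2e-09) and 2.26-fold lower in TAN than in G-MDSC (adjusted p = 0.00134). G-MDSC and NN differed by -0.28 (adjusted p = 0.35), which did not pass the threshold. Against NN the change in TAN was -2.40 with replicate 4 alone (adjusted p = 1.13e-06) and -0.81 with median scaling (adjusted p = 0.0509). Neutrophil marker sums were also lower in TAN (203000 to 248000) and SM16 (211000 to 295000) than in NN (505000 to 537000). They were lower in G-MDSC as well (417000 to 447000), where Rab27a had no call. The part of these sums in the Rab27a result was not tested.

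Rab37, found on secretory granules of mast cells and endocrine cells, was detected on all 7 NN and all 4 G-MDSC arrays but on 0 TAN arrays and 1 SM16 array. It was at least 1.34-fold lower in TAN than in NN (5.16 ± 0.44 against 6.28 ± 0.27, adjusted p = 0.000184) and also lower in SM16 (5.17 ± 0.25, log2 change -1.11, SE 0.19, adjusted p = 3.66e-05). Its level in G-MDSC was 6.01 ± 0.36 (log2 change -0.28, adjusted p = 0.287). It was at least 1.11-fold lower in TAN than in G-MDSC (adjusted p = 0.0057), a call lost without TAN replicate 1. Rab44, a large Rab of granulated immune cells with a calcium-binding domain, had no call on either probe in the 5 comparisons of whole groups. Its probe ILMN_3155815 was 10.27 ± 0.30 in NN, 10.01 ± 0.51 in G-MDSC, 10.11 ± 0.57 in TAN and 10.15 ± 0.63 in SM16, and the other (ILMN_3076909) was detected on 3 NN arrays only. Against NN replicates 6 and 7 alone that other probe was called lower in G-MDSC (-0.83, adjusted p = 0.00725). It passed the filter through NN arrays only, and those 2 (6.09 and 5.67) were its highest arrays. NN replicates 1 to 4 (4.86 to 5.05) lay within the range of G-MDSC (4.80 to 5.31), where no array detected it. That call is therefore no support for a fall.

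Rab10, which serves exocytosis of Glut4 and other cargo, fell in TAN on 1 of 2 probes (ILMN_2654296, log2 change -0.59, SE 0.16, adjusted p = 0.00336), and that change was -0.34 without a call with TAN replicate 4 alone. Its other probe had no call. Rab8a, which acts in export to the surface and to cilia, had 2 probes that went opposite ways in TAN against NN, 0.53 (adjusted p = 0.00421) and -0.52 (adjusted p = 0.0309), and with TAN replicate 4 alone the second was 0.20 and the first 0.07, both without a call. The fall of the second was also lost without NN replicate 3 (-0.46), NN replicate 5 (-0.49), TAN replicate 1 (-0.33) or TAN replicate 2 (-0.35). One of 2 probes of Rab8b, its close relative, fell in TAN against NN (log2 change -0.56, SE 0.14, adjusted p = 0.0017), but median scaling gave 0.19 and TAN replicate 4 alone -0.13, and the other changed by 0.076, -0.056 and -0.061 in TAN, SM16 and G-MDSC against NN, with no call. Rab3a, known from synaptic vesicles, rose by 0.55 in TAN (adjusted p = 0.0234; 0.025 with TAN replicate 4 alone, not called) and 0.51 in SM16 (adjusted p = 0.016).

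Rab13, a Rab of junctions and surface delivery, rose in the tumour groups. Its tested probe read 5.31 to 6.40 (median 6.25) in NN, 4.91, 5.52, 5.65 and 5.41 in G-MDSC, 7.41, 7.55 and 6.75 on TAN replicates 1, 2 and 4 and 6.83, 6.60, 7.16, 6.36 and 6.56 in SM16. TAN lay above all NN and G-MDSC arrays, and SM16 overlapped NN. The changes were 1.17 in TAN (adjusted p = 0.000725) and 0.64 in SM16 (adjusted p = 0.019) against NN and 1.86 in TAN against G-MDSC (adjusted p = 3.02e-05). With TAN replicate 4 alone the first was 0.69 (adjusted p = 0.167), and the call in SM16 was lost without SM16 replicate 3 (0.53) and against NN replicates 1 to 5, whose lowest signal is like that of the SM16 arrays (0.38). In G-MDSC it was called lower (-0.69, adjusted p = 0.0269), but the change was -0.034 against NN replicates 6 and 7, and the call was lost without NN replicate 1 (-0.63), NN replicate 3 (-0.63), NN replicate 4 (-0.64), G-MDSC replicate 1 (-0.54) or G-MDSC replicate 4 (-0.70). For the secretory group of 13 tested probes of 9 genes the calls against NN were 3 higher and 6 lower (23.1% and 46.2%, beside 34.9% and 33.1% of all probes) in TAN, 2 higher and 3 lower (15.4% and 23.1%, beside 29.9% and 32.5% of all probes) in SM16 and 0 higher and 2 lower (0% and 15.4%, beside 21.8% and 21.7% of all probes) in G-MDSC. Their median log2 changes were -0.41, -0.13 and -0.21 in TAN, SM16 and G-MDSC, beside 0.054, -0.039 and 0.0015 over all probes.

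**Figure D2:**
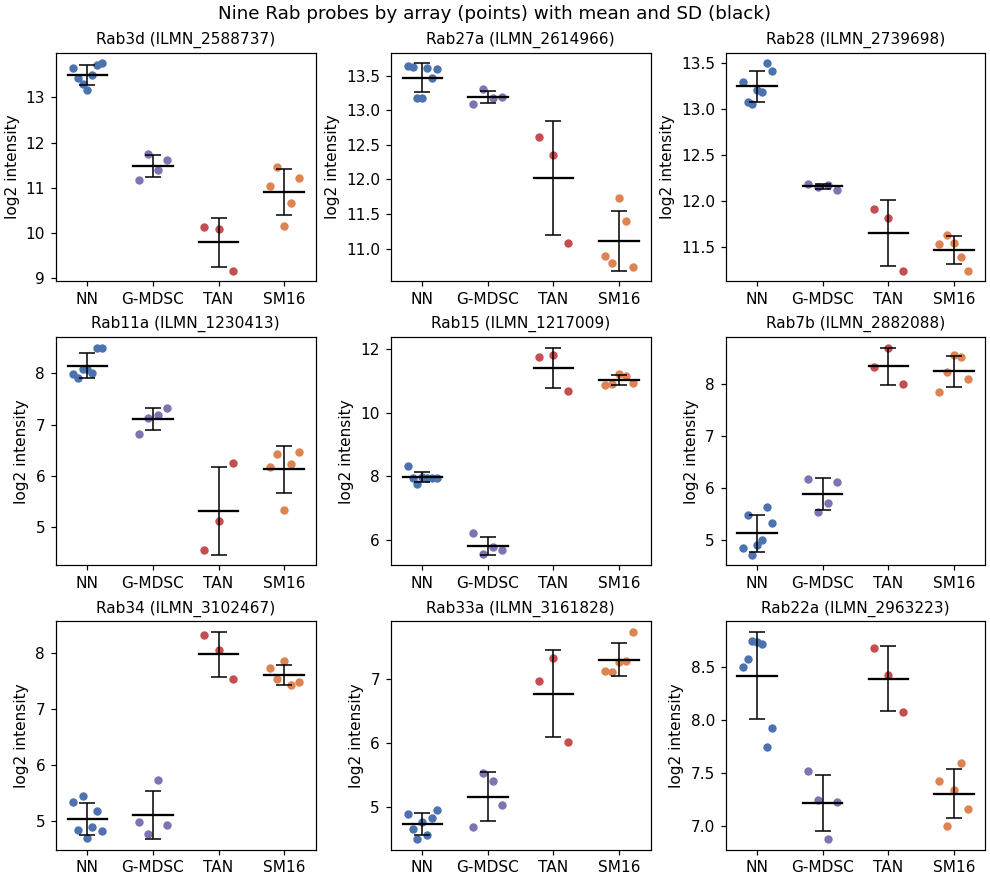
Log2 intensity (vertical axes) of 9 Rab probes on every array (points), by group (horizontal axes), with the group mean and SD in black. Rab3d, Rab28 and Rab11a were highest in NN, Rab15, Rab7b, Rab34 and Rab33a were highest on the TAN and SM16 arrays, and Rab22a was low in G-MDSC and SM16.

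For 15 tested probes of 9 Rabs of the endoplasmic reticulum and Golgi the calls against NN were 2 higher and 8 lower (13.3% and 53.3%, beside 34.9% and 33.1% of all probes) in TAN, 2 higher and 8 lower (13.3% and 53.3%, beside 29.9% and 32.5% of all probes) in SM16 and 3 higher and 1 lower (20% and 6.67%, beside 21.8% and 21.7% of all probes) in G-MDSC. Their median log2 changes were -0.96, -0.68 and 0.086 in TAN, SM16 and G-MDSC, beside 0.054, -0.039 and 0.0015 over all probes. Rab2a, which acts between the endoplasmic reticulum and the Golgi, read 12.25 to 12.64 (median 12.44) in NN, 10.77, 11.40, 11.27 and 11.40 in G-MDSC, 11.52, 11.50 and 10.87 on TAN replicates 1, 2 and 4 and 11.16, 11.67, 11.31, 11.66 and 11.31 in SM16. The marrow arrays lay above all others, and the other 3 groups overlapped. The fall was 2.22-fold in TAN (log2 change -1.15, SE 0.16, adjusted p = 4.09e-06), 2.04-fold in SM16 (adjusted p = 1.88e-06) and 2.36-fold in G-MDSC (adjusted p = 9.36e-07).

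Rab1a and Rab1b share the step from the endoplasmic reticulum to the Golgi, and their probes differed. Rab1a was 9.87 ± 0.24 in NN, 10.09 ± 0.31 in G-MDSC, 9.88 ± 0.14 in TAN and 10.003 ± 0.12 in SM16, with no call. Of 3 Rab1b probes, ILMN_2693124 read 9.49 to 10.41 (median 9.94) in NN, 6.17, 10.32, 10.62 and 9.97 in G-MDSC, 6.61, 6.85 and 6.23 on TAN replicates 1, 2 and 4 and 8.67, 9.37, 6.40, 6.62 and 8.86 in SM16. Its TAN arrays lay below every NN array, and SM16 replicates 3 and 4 and G-MDSC replicate 1 were low as well. It was 10.5-fold lower in TAN than in NN (log2 change -3.39, SE 0.73, adjusted p = 0.000437) and 3.92-fold lower in SM16 (adjusted p = 0.00947). The second probe (ILMN_2887208) fell by 1.84 in TAN and by 0.68 in SM16, the latter lost without SM16 replicate 2 (-0.58), and the first was -3.73 and the second -0.89 with TAN replicate 4 alone, both called. The remaining probe (ILMN_2614713), detected on 5 of 19 arrays, rose by 0.79 in TAN (adjusted p = 0.0033), which was 0.21 with TAN replicate 4 alone and lost its call without TAN replicate 2 (0.51).

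Rab6a, which drives retrograde transport at the Golgi, was lower in SM16 than in NN on all 3 probes (-1.03, -1.32 and -0.87 for ILMN_1242802, ILMN_2699635 and ILMN_2825339, with adjusted p = 0.0104, 0.000734 and 4.05e-05). In TAN the first changed by -2.09 (adjusted p = 9.73e-05) and the second by -0.76 (not called), and the last, detected on no TAN array, was at least 1.53-fold lower than in NN (adjusted p = 1.76e-06). With TAN replicate 4 alone the first was -0.96 without a call and the second -2.32 with one. Rab18, a Rab of lipid droplets and the endoplasmic reticulum, fell in TAN (2.48-fold lower than in NN, log2 change -1.31, SE 0.20, adjusted p = 1.16e-05; -0.59 with TAN replicate 4 alone) and differed by -0.13 in SM16 (adjusted p = 0.528).

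The 2 Rab33 genes, both placed at the Golgi and linked to autophagosome formation through Atg16l1, went opposite ways. Rab33b was 10.30 ± 0.21 in NN, 10.77 ± 0.075 in G-MDSC, 9.11 ± 0.23 in TAN and 8.76 ± 0.14 in SM16, and was 2.28-fold lower in TAN and 2.92-fold lower in SM16 than in NN (adjusted p = 4.36e-07 and 7.95e-10). Rab33a read 4.49 to 4.96 (median 4.77) in NN, where no array detected it, 4.68, 5.54, 5.40 and 5.03 in G-MDSC, 6.98, 7.34 and 6.01 on TAN replicates 1, 2 and 4 and 7.13, 7.11, 7.27, 7.29 and 7.75 in SM16. All TAN and SM16 arrays detected it and lay above all NN and G-MDSC arrays. It was at least 2.52-fold higher in TAN (log2 change 2.04, adjusted p = 4.56e-07) and at least 3.64-fold higher in SM16 than in NN (log2 change 2.57, adjusted p = 1.25e-09). One of 2 Rab43 probes (ILMN_1229477) was lower in both tumour groups (at least 1.16-fold lower in TAN, where no array detected it, and a log2 change of -0.70 in SM16), and the other had no call against NN (-0.20 and 0.21).

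For 7 tested probes of 5 early endosome Rabs the calls against NN were 0 higher and 1 lower (0% and 14.3%, beside 34.9% and 33.1% of all probes) in TAN, 2 higher and 4 lower (28.6% and 57.1%, beside 29.9% and 32.5% of all probes) in SM16 and 2 higher and 3 lower (28.6% and 42.9%, beside 21.8% and 21.7% of all probes) in G-MDSC. Their median log2 changes were -0.029, -0.35 and 0.15 in TAN, SM16 and G-MDSC, beside 0.054, -0.039 and 0.0015 over all probes. Against TAN they were 0 higher and 4 lower (0% and 57.1%, beside 20.1% and 25.3% of all probes) in SM16. Those calls were of Rab22a (both probes), Rab21 and Rab31. A fit of the TAN and SM16 arrays only called 3 of all 68 Rab probes lower in SM16, beside 12.2% of all probes. The fits without TAN replicate 1 or TAN replicate 2 also called 3 each, beside 12.4% and 12.9% of all probes, and in each of them Rab21 lost its call. These counts are of the whole family and do not show how many of the 4 calls stayed. Rab22a, which sorts cargo on early endosomes, read 7.75 to 8.74 (median 8.57) in NN, 7.52, 7.24, 6.87 and 7.23 in G-MDSC, 8.67, 8.42 and 8.07 on TAN replicates 1, 2 and 4 and 7.42, 6.998, 7.34, 7.59 and 7.16 in SM16 on probe ILMN_2963223. The SM16 and G-MDSC arrays lay below all NN and TAN arrays. The changes against NN were -1.11 in SM16 (adjusted p = 5.25e-05), -1.20 in G-MDSC (adjusted p = 9.57e-05) and -0.029 in TAN (not called), and the other probe gave -1.05, -1.11 and -0.064. Within NN the level followed the lowest signal of the array. NN replicates 6 and 7 read 7.75 and 7.92, and the other 5 read from 8.50 to 8.74. Against NN replicates 6 and 7 alone the G-MDSC changes were -0.62 (adjusted p = 0.103) and -0.45 (adjusted p = 0.206). The SM16 and TAN arrays all lie on 1 side of that split, and SM16 was lower than TAN by 1.08 and 0.99 log2 units on the 2 probes (-0.77 and -0.69, not called, with TAN replicate 4 alone).

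Rab21, which takes up integrins, was 1.72-fold lower in TAN and 2.67-fold lower in SM16 than in NN (9.37 ± 0.24 in NN, 8.59 ± 0.38 in TAN, 7.95 ± 0.30 in SM16; adjusted p = 0.00122 and 1.89e-07), while G-MDSC was 9.54 ± 0.097 (0.17, not called). Rab31, which moves cargo between the Golgi and endosomes, fell slightly in SM16 (log2 change -0.35, SE 0.083, adjusted p = 0.00116) and was -0.0078 in TAN. Rab5a and Rab5c drive fusion of early endosomes. Both Rab5a probes rose in G-MDSC (0.86 and 0.86, adjusted p = 0.0117 and 0.0281), but against NN replicates 6 and 7 the changes were 0.27 and 0.015, neither called. The 2 calls were also lost without G-MDSC replicate 2 (0.74) or G-MDSC replicate 3 (0.72) for the first probe and without NN replicate 1 (0.76), NN replicate 2 (0.79), NN replicate 4 (0.78), G-MDSC replicate 2 (0.72) or G-MDSC replicate 3 (0.65) for the second. In SM16 the first probe rose by 0.60 (adjusted p = 0.041), which was lost without NN replicate 1 (0.54), NN replicate 2 (0.56), NN replicate 3 (0.57), NN replicate 4 (0.50), SM16 replicate 1 (0.51), SM16 replicate 2 (0.60) or SM16 replicate 3 (0.58). Rab5c rose in SM16 by 0.43 (adjusted p = 0.000831) and fell in G-MDSC by 0.40 log2 units (adjusted p = 0.00457; -0.16, not called, against NN replicates 6 and 7).

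The recycling Rabs held the largest rise of the family in TAN. For 8 tested probes of 8 genes the calls against NN were 3 higher and 3 lower (37.5% and 37.5%, beside 34.9% and 33.1% of all probes) in TAN, 3 higher and 4 lower (37.5% and 50%, beside 29.9% and 32.5% of all probes) in SM16 and 1 higher and 3 lower (12.5% and 37.5%, beside 21.8% and 21.7% of all probes) in G-MDSC. Their median log2 changes were 0.26, -0.049 and -0.15 in TAN, SM16 and G-MDSC, beside 0.054, -0.039 and 0.0015 over all probes. Rab15, which slows traffic between early and recycling endosomes, read 7.77 to 8.31 (median 7.96) in NN, 6.20, 5.55, 5.78 and 5.68 in G-MDSC, 11.77, 11.82 and 10.70 on TAN replicates 1, 2 and 4 and 10.89, 10.91, 11.22, 11.16 and 10.93 in SM16. Every G-MDSC array lay below every NN array, and every TAN and SM16 array lay above. It was 10.9-fold higher in TAN (log2 change 3.44, SE 0.21, adjusted p = 2.45e-11) and 8.22-fold higher in SM16 (log2 change 3.04, SE 0.17, adjusted p = 8.11e-12) than in NN, 4.54-fold lower in G-MDSC than in NN (log2 change -2.18, SE 0.19, adjusted p = 1.01e-08) and 49.4-fold higher in TAN than in G-MDSC (adjusted p = 5.72e-13). With TAN replicate 4 alone the change against NN was 2.71, and with NN replicates 6 and 7 alone the change in G-MDSC was -2.16, both called. Of 11 macrophage and monocyte marker probes 7 were called higher and 1 lower in TAN against NN. In SM16 10 were higher and 0 lower, and in G-MDSC 4 were higher and 0 lower. The summed intensity of these markers was higher in both tumour groups than in NN and overlapped between G-MDSC and NN. Within TAN, replicate 4 had the highest sum (92000, against 24900 and 32500 on replicates 1 and 2) and the lowest Rab15 value (10.70). The part of these markers in the Rab15 result was not tested.

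Rab11a, the main Rab of slow recycling, read 7.90 to 8.50 (median 8.08) in NN, 6.81, 7.13, 7.18 and 7.32 in G-MDSC, 4.56, 5.12 and 6.24 on TAN replicates 1, 2 and 4 and 6.16, 6.43, 5.34, 6.23 and 6.46 in SM16. Every NN array lay above every G-MDSC array, and these above the tumour arrays, of which 1 TAN and 4 SM16 arrays detected the probe. Against NN it was 7.17-fold lower in TAN (log2 change -2.84, SE 0.29, adjusted p = 6.2e-08), 4.08-fold lower in SM16 (adjusted p = 5.21e-07) and 2.06-fold lower in G-MDSC (adjusted p = 0.00317). With TAN replicate 4 alone the change in TAN was -1.91. Rab11b, its close relative, changed much less, by -0.40 in TAN (adjusted p = 0.016; 0.33 with median scaling, and without a call at -0.16 without TAN replicate 4) and -0.61 in SM16 (adjusted p = 0.000149).

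Rab4a, of fast recycling, rose in the tumour groups. It read 5.60 to 5.91 (median 5.65) in NN, 6.11, 4.81, 4.62 and 4.81 in G-MDSC, 6.92, 6.93 and 6.54 on TAN replicates 1, 2 and 4 and 7.14, 7.38, 7.002, 7.34 and 7.65 in SM16. All tumour arrays lay above all NN arrays, and G-MDSC replicate 1 was the only G-MDSC array that detected it. The changes against NN were 1.09 in TAN (adjusted p = 0.000635; 0.84, adjusted p = 0.0793, with TAN replicate 4 alone), 1.59 in SM16 (adjusted p = 1.34e-06) and -0.62 in G-MDSC (adjusted p = 0.0299). The last was lost without G-MDSC replicate 2 (-0.53), G-MDSC replicate 3 (-0.46) or G-MDSC replicate 4 (-0.53) and against NN replicates 6 and 7 (-0.74). Rab4b rose in G-MDSC (0.60, adjusted p = 0.00361; adjusted p = 0.0748 against NN replicates 6 and 7) and fell by 0.35 log2 units in SM16, a call lost without NN replicate 1 (-0.32), NN replicate 2 (-0.35), NN replicate 3 (-0.33), NN replicate 5 (-0.34), NN replicate 7 (-0.34), SM16 replicate 1 (-0.36), SM16 replicate 2 (-0.27) or SM16 replicate 5 (-0.27) and against NN replicates 1 to 5 (-0.36). Rab14, of phagosomes and the Golgi, rose by 0.50 in TAN (adjusted p = 0.00679), a change of -0.066 with TAN replicate 4 alone, without a call also without TAN replicate 1 (0.34) or TAN replicate 2 (0.38). Rab35, of endosomal recycling and cell division, was lower by 0.40 in TAN and 0.61 in SM16 log2 units than in NN (adjusted p = 0.00216 and 5.5e-06), the first of which was 0.12 with median scaling.

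Rab25, an epithelial relative of Rab11, was detected on 4 of 5 SM16 arrays, 1 G-MDSC array and no NN or TAN array. Its levels were 6.88, 6.40, 8.11, 5.25 and 5.48 on SM16 replicates 1 to 5, 4.98, 5.11 and 4.86 on TAN replicates 1, 2 and 4, 4.87, 4.71, 5.41 and 5.28 in G-MDSC and 4.47 to 4.99 (median 4.57) in NN. SM16 replicates 1 to 3 stood well above the other arrays. It was at least 1.97-fold higher in SM16 than in NN (log2 change 1.77, adjusted p = 0.00012) and at least 1.48-fold higher than in TAN (log2 change 1.44, adjusted p = 0.00961; adjusted p = 0.212 with TAN replicate 4 alone). The summed intensity of 9 hair and keratinocyte markers was 19600, 11700, 30300, 2180 and 5500 on SM16 replicates 1 to 5, 632 to 901 in TAN and 306 to 374 in NN, so that the 5 SM16 arrays had the same order in both. All 9 markers were called higher in SM16 than in NN, beside 29.9% of all probes. Of the 12 listed genes on the array 9 were detected on no NN array. Markers could thus pass the filter through the SM16 arrays, and the calls follow in part from that choice. The listed genes Krt25 and Lor were detected on no SM16 array. The part of the hair and keratinocyte markers in the Rab25 result was not tested.

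**Figure D3:**
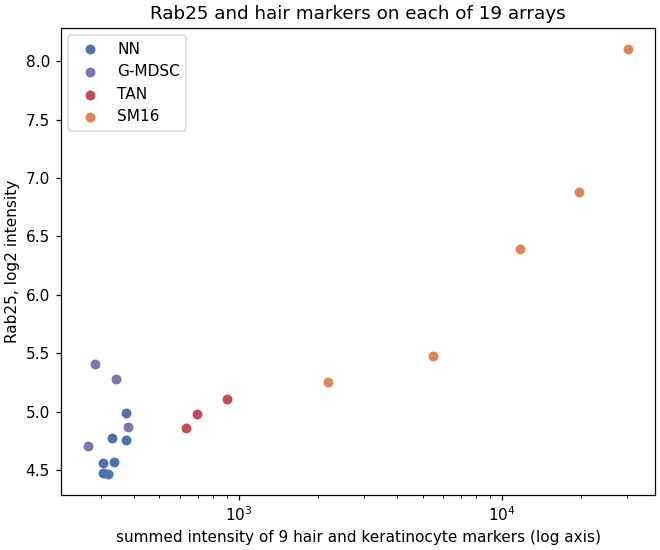
Log2 intensity of Rab25 (vertical axis) against the summed intensity of 9 hair and keratinocyte markers (horizontal log axis) on each of 19 arrays, coloured by group. The SM16 arrays span 2180 to 30300 in the marker sum, and the array with the highest sum has the highest Rab25 value.

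For 16 tested probes of 9 Rabs of late endosomes, lysosomes and autophagy the calls against NN were 8 higher and 1 lower (50% and 6.25%, beside 29.9% and 32.5% of all probes) in SM16, 5 higher and 4 lower (31.2% and 25%, beside 34.9% and 33.1% of all probes) in TAN and 5 higher and 1 lower (31.2% and 6.25%, beside 21.8% and 21.7% of all probes) in G-MDSC. Their median log2 changes were 0.27, 0.47 and 0.23 in TAN, SM16 and G-MDSC, beside 0.054, -0.039 and 0.0015 over all probes. Rab7b, which returns cargo from late endosomes to the Golgi, read 4.71 to 5.63 (median 4.999) in NN (3 arrays detected it), 6.16, 5.54, 5.71 and 6.11 in G-MDSC, 8.32, 8.69 and 7.98 on TAN replicates 1, 2 and 4 and 7.83, 8.23, 8.54, 8.51 and 8.08 in SM16. All tumour arrays lay more than 1 log2 unit above all others. Rab7b was 9.22-fold higher in TAN (log2 change 3.20, SE 0.23, adjusted p = 5.14e-10) and 8.64-fold higher in SM16 (log2 change 3.11, SE 0.20, adjusted p = 4.19e-11) than in NN. TAN replicate 4 alone gave 2.86. Macrophage and monocyte marker sums were higher in the same 2 groups. Within TAN, replicate 4 had the highest sum (92000, against 24900 and 32500 on replicates 1 and 2) and the lowest Rab7b value (7.98). The part of these markers in this result was not tested.

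Rab7 itself, the central Rab of late endosomes and lysosomes, depended on the probe. Probe ILMN_1248907 read 13.25 to 13.54 (median 13.42) in NN, 12.68, 12.72, 12.71 and 12.93 in G-MDSC, 12.22, 12.22 and 13.50 on TAN replicates 1, 2 and 4 and 13.64, 13.55, 13.71, 13.67 and 13.58 in SM16. TAN replicates 1 and 2 were the lowest arrays, and TAN replicate 4 lay among NN. It fell by 0.75 in TAN (adjusted p = 0.00167; 0.11 with TAN replicate 4 alone, not called) and by 0.63 log2 units in G-MDSC (adjusted p = 0.00515). The other 2 probes (ILMN_1254837 and ILMN_2618549) rose in SM16 by 0.83 and 1.10 (adjusted p = 0.0226 and 0.00663) and in G-MDSC by 1.36 and 1.53 (adjusted p = 0.00194 and 0.00145), and had no call in TAN against NN. The SM16 call of the first was lost without SM16 replicate 1 (0.74), SM16 replicate 2 (0.74) or SM16 replicate 5 (0.77). Against NN replicates 6 and 7 the 3 changes in G-MDSC were -0.51, 0.76 and 0.91, none called.

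Rab34, which positions lysosomes and takes part in macropinocytosis, rose in SM16 on each of 3 probes, while its probes split the TAN arrays. Probe ILMN_3102467 read 4.69 to 5.44 (median 4.90) in NN, 4.99, 4.76, 5.72 and 4.93 in G-MDSC, 8.33, 8.06 and 7.53 on TAN replicates 1, 2 and 4 and 7.73, 7.54, 7.87, 7.43 and 7.48 in SM16, so all tumour arrays lay above all others. It was at least 5.77-fold higher in TAN and at least 4.48-fold higher in SM16 than in NN, where no array detected it (log2 changes 2.94 and 2.58, adjusted p = 1.16e-09 and 4.81e-10). Probe ILMN_3029294 read 4.82, 5.06 and 8.96 on TAN replicates 1, 2 and 4 and 9.12, 9.06, 8.26, 8.70 and 8.84 in SM16, beside 5.33 to 6.48 (median 5.61) in NN. On it TAN replicates 1 and 2 were below every NN array and TAN replicate 4 was among SM16. Its change in TAN against NN was 0.48 (adjusted p = 0.472) with all 3 arrays, 3.15 with TAN replicate 4 alone and -0.86 without it, the last 2 both called. In SM16 it rose by 2.99 (adjusted p = 2.09e-05). Probe ILMN_2633777 went the other way among the TAN arrays (7.37, 6.75 and 5.26) and was at least 2.02-fold higher in TAN than in NN, where no array detected it (adjusted p = 5.34e-06), and was called higher in SM16, without a fold bound (log2 change 0.90, adjusted p = 0.00302).

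Rab24, which clears autophagosomes, showed the same split. Probe ILMN_2747912 read 9.97 to 10.65 (median 10.23) in NN, 9.86, 11.08, 10.90 and 10.96 in G-MDSC, 6.30, 5.78 and 9.85 on TAN replicates 1, 2 and 4 and 10.83, 10.47, 9.96, 10.11 and 10.30 in SM16. TAN replicates 1 and 2 lay far below all other arrays, and TAN replicate 4 lay at their lower edge. Its change in TAN against NN was -2.92 (adjusted p = 9.71e-05), and -0.38 (adjusted p = 0.401) with TAN replicate 4 alone. The other 2 probes (ILMN_2624647 and ILMN_2946440) were 11.50 ± 0.088 and 11.91 ± 0.21 in NN and 11.34 ± 0.067 and 11.92 ± 0.039 in TAN, without a call, and rose slightly in G-MDSC (0.36 and 0.42). Of these 2 rises the first was lost without G-MDSC replicate 4 (0.29) and against NN replicates 6 and 7 (0.33).

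**Figure D4:**
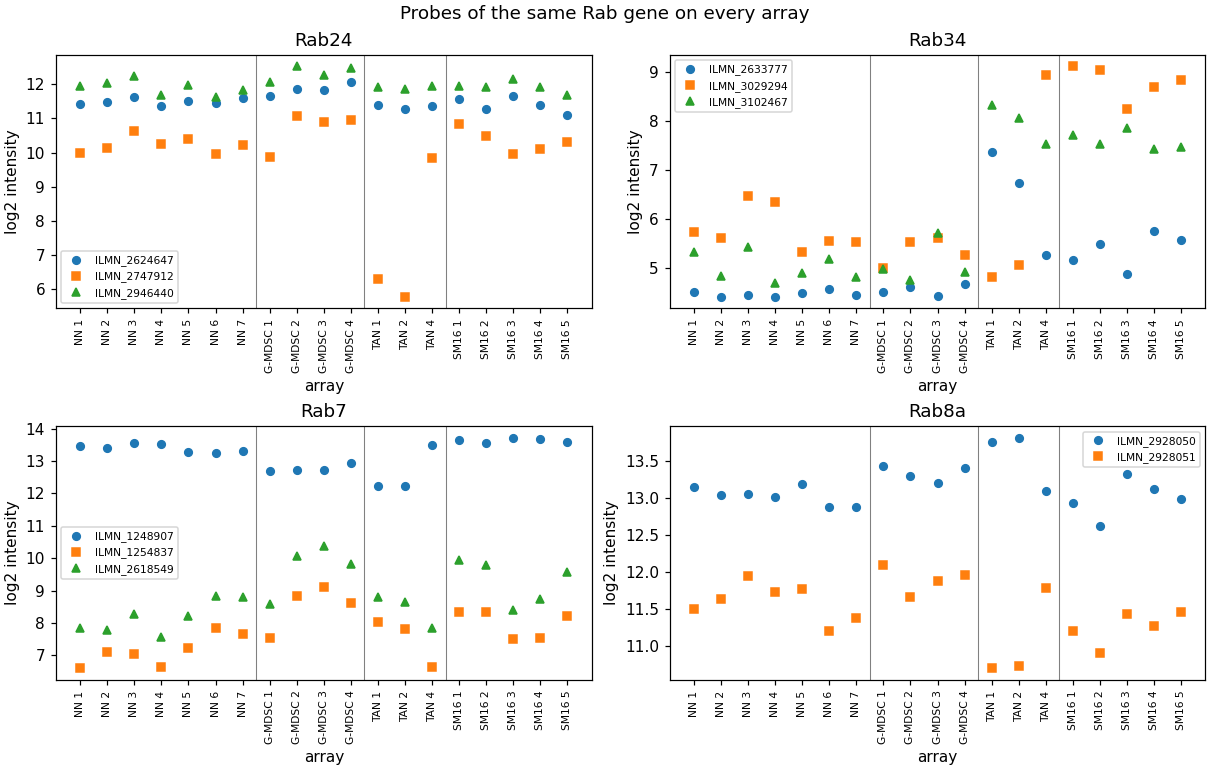
Log2 intensity (vertical axes) of each probe of Rab24, Rab34, Rab7 and Rab8a on every array (horizontal axes), with lines between the groups. The Rab24 probe ILMN_2747912 and the Rab34 probe ILMN_3029294 were low on TAN replicates 1 and 2 and not on TAN replicate 4.

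Rab9, which returns mannose 6-phosphate receptors to the Golgi, had 2 probes that opposed each other in TAN. ILMN_2783918 rose by 1.81 in TAN (adjusted p = 3.98e-06; 1.11 with TAN replicate 4 alone, called) and 0.83 in SM16. ILMN_1258125, detected on no TAN array, was 5.47 ± 0.35 in TAN and 6.32 ± 0.38 in NN (at least 1.37-fold lower, log2 change -0.85, adjusted p = 0.0157; -0.65 without TAN replicate 4 and -0.67 against NN replicates 1 to 5, neither called). Rab12, which sends transferrin receptor to degradation, read 5.56 to 6.74 (median 6.46) in NN, 5.08, 6.83, 6.88 and 6.13 in G-MDSC, 5.06, 5.03 and 4.59 on TAN replicates 1, 2 and 4 and 6.27, 7.19, 6.74, 6.56 and 6.91 in SM16. No TAN array detected it, and the TAN arrays were the lowest. It was at least 1.35-fold lower in TAN than in NN (log2 change -1.40, adjusted p = 0.00096; -1.71 with TAN replicate 4 alone), and SM16 against NN was 0.44 (adjusted p = 0.185).

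For 5 tested probes of 4 Rabs of phagosomes and lysosome-related organelles the calls against NN were 0 higher and 4 lower (0% and 80%, beside 34.9% and 33.1% of all probes) in TAN, 1 higher and 3 lower (20% and 60%, beside 29.9% and 32.5% of all probes) in SM16 and 0 higher and 1 lower (0% and 20%, beside 21.8% and 21.7% of all probes) in G-MDSC. Their median log2 changes were -0.55, -0.73 and 0.11 in TAN, SM16 and G-MDSC, beside 0.054, -0.039 and 0.0015 over all probes. Rab32, which acts in the biogenesis of lysosome-related organelles, read 13.33 to 13.95 (median 13.52) in NN, 13.40, 13.76, 13.81 and 13.78 in G-MDSC, 13.09, 13.20 and 12.79 on TAN replicates 1, 2 and 4 and 12.22, 12.29, 12.49, 12.45 and 12.26 in SM16. The SM16 arrays were the lowest and did not overlap TAN. It was 2.35-fold lower in SM16 than in NN (log2 change -1.23, SE 0.12, adjusted p = 2.13e-08) and 1.46-fold lower in TAN (log2 change -0.55, SE 0.14, adjusted p = 0.00189), and the change in TAN became 0.17 with median scaling. Rab38, its close relative, was lower by 0.94 log2 units in SM16 on 1 of 2 probes (ILMN_2806250, adjusted p = 0.000385), which also fell by 0.91 in G-MDSC (adjusted p = 0.00169). In TAN both probes were called lower (-0.59 and -0.67, the second detected on no TAN array and without a fold bound), and both calls were lost with TAN replicate 4 alone (-0.78 and -0.54), the first also without NN replicate 1 (-0.53), NN replicate 4 (-0.55), NN replicate 6 (-0.55), TAN replicate 2 (-0.52) or TAN replicate 4 (-0.49) and against NN replicates 1 to 5 (-0.58), and the second without TAN replicate 1 (-0.52).

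Rab20, a Rab of phagosome maturation in macrophages, rose in SM16. It read 6.57, 5.51, 6.23, 6.21 and 5.91 in SM16, 4.69, 4.85 and 6.49 on TAN replicates 1, 2 and 4, 5.60, 5.43, 5.59 and 5.57 in G-MDSC and 4.75 to 5.40 (median 5.03) in NN, where 1 array detected it. All SM16 and G-MDSC arrays and TAN replicate 4 lay above the NN arrays, and TAN replicates 1 and 2 did not. The change was 0.99 in SM16 (adjusted p = 0.00199) and 0.25 in TAN (adjusted p = 0.473), or 1.40 (adjusted p = 0.00137) with TAN replicate 4 alone. The macrophage sums were highest on the SM16 arrays and TAN replicate 4, 92000 on TAN replicate 4 against 24900 and 32500 on replicates 1 and 2. In G-MDSC, where Rab20 also lay above NN, the sums were 8710 to 11600 and overlapped those of NN (7190 to 14900). Among the SM16 arrays replicate 2 had the highest sum (178000) and the lowest Rab20 value (5.51). The part of these markers in the Rab20 result was not tested.

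Rab28, described at cilia and in photoreceptors, fell in every group outside the marrow on both probes. Probe ILMN_2990864, whose gene's upstream sequence is printed beside that of Rab3d, read 12.30 to 12.70 (median 12.46) in NN, 11.13, 11.44, 11.57 and 11.33 in G-MDSC, 9.70, 9.79 and 10.43 on TAN replicates 1, 2 and 4 and 10.74, 10.61, 10.48, 10.40 and 10.31 in SM16. All NN arrays were the highest, G-MDSC came next and the tumour arrays were the lowest, with no overlap between these 3 levels. It was 5.68-fold lower in TAN (log2 change -2.51, SE 0.15, adjusted p = 3.11e-11), 3.91-fold lower in SM16 (adjusted p = 6.25e-11) and 2.16-fold lower in G-MDSC (adjusted p = 1.7e-06). The second probe (ILMN_2739698) changed by -1.59, -1.77 and -1.08 in TAN, SM16 and G-MDSC, all called. Rab23, a Rab of hedgehog signalling and cilia, was detected on all NN arrays and on no TAN or SM16 array, and was at least 1.62-fold lower in TAN and at least 2.28-fold lower in SM16 (adjusted p = 0.00321 and 9.71e-05).

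Rab29, which recruits Lrrk2 to membranes, was lower by 0.36 log2 units in TAN (adjusted p = 0.0296; -0.49 with TAN replicate 4 alone, not called) and by 0.73 in SM16 (adjusted p = 1.99e-05) than in NN. Rab36, which binds the lysosomal effector RILP, was detected on no tumour array and was at least 1.42-fold lower in SM16 than in NN (adjusted p = 0.000253). Rab39, which regulates phagosome acidification, rose by 0.50 in SM16 (adjusted p = 0.0111). Rab39b, best known from neurons, was detected on 4 of 19 arrays, among them TAN replicates 1 and 2. Its change in TAN was 0.93 (adjusted p = 0.00204), or 0.079 without a call with TAN replicate 4 alone. Rab40c, whose product works in a ubiquitin ligase, had no call against NN (0.36, -0.10 and 0.27 in TAN, SM16 and G-MDSC).

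Tumour and spleen neutrophils of tumour-bearing mice differed most in Rab15 (log2 change 5.63), the Rab24 probe ILMN_2747912 (-3.39), the Rab34 probe ILMN_3102467 (2.87), the Rab1b probe ILMN_2693124 (-2.71) and Rab7b (2.45). With TAN replicate 4 alone these were 4.90, -0.84, 2.43, -3.04 and 2.10, with the Rab24 and Rab1b probes no longer called. Of the 44 calls 24 were made in the same direction with TAN replicate 4 alone, which called 10 higher and 21 lower, beside 41.7% of all probes. All TAN arrays had the higher and all G-MDSC arrays the lower of the 2 levels of lowest signal. In a fit with that split as a block, which rests on the NN arrays of both levels, 9 Rab probes were higher and 14 lower in TAN than in G-MDSC, beside 20.4% and 18.3% of all probes.

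The comparison of spleen with marrow neutrophils gave the fewest Rab calls in the model of all 4 groups, though not in fits of 2 groups. In G-MDSC against NN 11 Rab probes were higher and 13 lower (16.2% and 19.1%), beside 21.8% and 21.7% of all probes, or 35.3% called beside 43.5%. The median change was 0.028, beside 0.0015 over all probes, and the arrays did not overlap for 17 Rab probes, 25% against 36.5% of all probes. All G-MDSC arrays and only NN replicates 6 and 7 had the low lowest signal. With those 2 NN arrays alone, 2 Rab probes were higher and 8 lower, beside 11.5% and 13.3% of all probes. Falls of Rab15 (-2.16), Rab3d (-2.25), Rab28 (-1.30), Rab11a (-1.39), Rab2a (-1.23) and Rab38 (-0.93) and the rise of the Rab24 probe ILMN_2946440 (0.60) were among the calls that this comparison kept. It also called the Rab44 probe ILMN_3076909 lower (-0.83). No G-MDSC array detected that probe, which passed the filter through NN arrays only. Rab19, a Golgi Rab, rose on both probes in the full comparison (at least 1.25-fold higher for the first, detected on no NN array, and a log2 change of 0.81 for the second), and the second probe was 0.75 (adjusted p = 0.104) with the like arrays.

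SM16 treatment was compared directly with TAN. With all 3 TAN arrays 16 Rab probes were higher and 13 lower in SM16, beside 20.1% and 25.3% of all probes (45.4% in either direction), with a median change of 0.090 against -0.13 over all probes. The arrays did not overlap for 15 Rab probes (22.1%, beside 22.5% of all probes). Which probes were called rested on the TAN arrays. With TAN replicate 4 alone 3 Rab probes were higher and 0 lower, beside 3.5% of all probes called, and 2 of them were among the first set. A fit of the TAN and SM16 arrays only called 6 higher and 3 lower, beside 9.28% and 12.2% of all probes. Median scaling, which moved the median of all probes to -0.47, called 5 higher and 23 lower, beside 14.1% and 38.6% of all probes.

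Rab12 and Rab3d were called higher in SM16 in the full fit and also against the single array of TAN replicate 4. The fits share that array and the SM16 arrays, and in the second the spread comes from the other groups alone, so it is no independent test. Rab12 was at least 1.83-fold higher in SM16 than in TAN (6.73 ± 0.35 against 4.89 ± 0.27; log2 change 1.84, adjusted p = 0.000657, or 2.15 and 0.032 with TAN replicate 4 alone). Rab3d was 2.17-fold higher (log2 change 1.11, SE 0.26, adjusted p = 0.00231, or 1.75 and 0.00992). Rab33a was not called with all 3 (0.53, adjusted p = 0.0953) and was 1.30 against the single array of TAN replicate 4 (adjusted p = 0.0244). The largest differences with all 3 arrays, the Rab24 probe ILMN_2747912 (3.02) and the Rab34 probe ILMN_3029294 (2.52), became 0.48 and -0.16. Rab27a (-0.90 with all, 0.037 with replicate 4 alone), Rab11a (0.81 and -0.12) and the Rab34 probe ILMN_2633777 (-1.08 and 0.12) were among 6 called probes whose sign turned. Without TAN replicate 1 or TAN replicate 2 the calls of Rab27a (-0.60 and -0.74), Rab11a (0.44 and 0.72) and Rab21 (-0.47 and -0.60) were lost. Rab32, which was 1.6-fold lower in SM16 with all 3 arrays (adjusted p = 0.00156), was -0.45 without a call with replicate 4 alone.

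**Figure D5:**
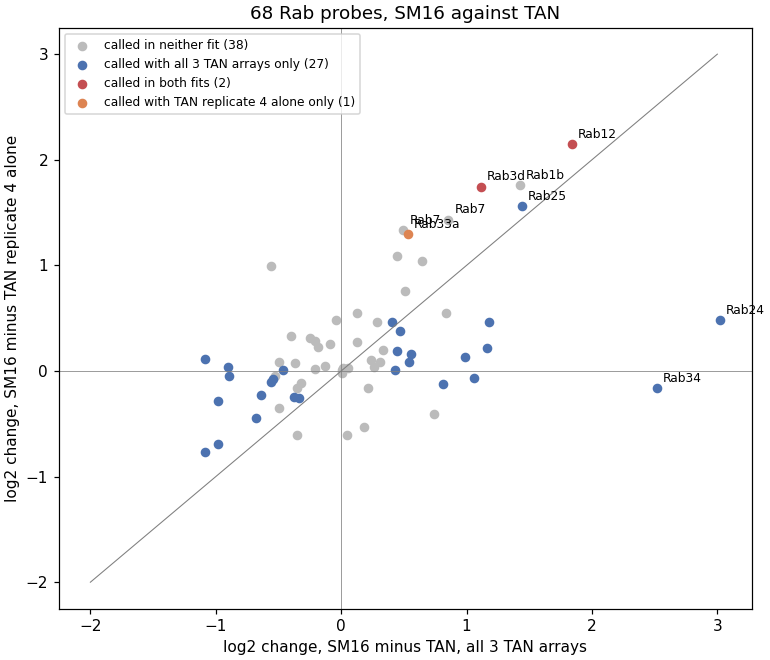
Log2 change of 68 Rab probes in SM16 minus TAN with all 3 TAN arrays (horizontal axis) and with TAN replicate 4 alone (vertical axis), coloured by which fit called them, with the line of equal values. Of 29 probes called with all arrays 27 were not called with replicate 4 alone, and the Rab24 and Rab34 probes at the right lie near 0 on the vertical axis.

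Proteins that load, unload and read the Rabs were tested as 4 lists. Against NN the shares of all probes called were 34.9% and 33.1% higher and lower in TAN, 29.9% and 32.5% in SM16 and 21.8% and 21.7% in G-MDSC, and the median log2 changes of all probes were 0.054, -0.039 and 0.0015. For 33 probes of 22 activators the calls against NN were 6 higher and 17 lower (18.2% and 51.5%) in TAN, 5 higher and 20 lower (15.2% and 60.6%) in SM16 and 3 higher and 9 lower (9.09% and 27.3%) in G-MDSC, with median log2 changes of -0.84, -0.85 and -0.11. For 31 probes of 25 inactivators they were 12 higher and 10 lower (38.7% and 32.3%), 13 higher and 12 lower (41.9% and 38.7%) and 6 higher and 6 lower (19.4% and 19.4%) in the same order, with median log2 changes of -0.30, -0.27 and 0.011. For 40 probes of 28 effectors they were 13 higher and 15 lower (32.5% and 37.5%), 10 higher and 14 lower (25% and 35%) and 6 higher and 12 lower (15% and 30%), with median log2 changes of -0.12, 0.012 and -0.14. For 9 probes of 6 genes of lipid attachment and membrane retrieval they were 2 higher and 3 lower (22.2% and 33.3%), 2 higher and 2 lower (22.2% and 22.2%) and 1 higher and 2 lower (11.1% and 22.2%), with median log2 changes of -0.53, -0.28 and 0.09.

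The deepest fall belonged to Lrrk2, a kinase that phosphorylates Rab8a, Rab10, Rab12 and other Rabs. It read 10.76 to 11.58 (median 11.30) in NN, 9.12, 9.93, 9.76 and 10.12 in G-MDSC, 5.74, 5.57 and 6.88 on TAN replicates 1, 2 and 4 and 6.82, 6.25, 6.37, 6.81 and 5.69 in SM16. All G-MDSC arrays lay below NN, and all tumour arrays below G-MDSC. Against NN the change was -5.16 in TAN (adjusted p = 1.29e-11) and -4.83 in SM16 (adjusted p = 1.61e-12), and against G-MDSC it was -3.67 in TAN (adjusted p = 3.21e-08). Sytl1, an effector of Rab27, fell by 3.69 log2 units in SM16 (adjusted p = 4.28e-09). It also lay below the NN arrays (10.84 to 11.45) in G-MDSC (9.37 to 9.63) and in TAN (8.48, 8.12 and 6.08 on replicates 1, 2 and 4). In G-MDSC Sytl4, an effector of Rab27 and Rab3 on secretory granules, was at least 2.75-fold lower than in NN (adjusted p = 6.75e-09). Sytl4 was as low in the tumour groups, at 4.37 to 4.41 in TAN and 4.37 to 4.55 in SM16. It read 4.41 to 4.64 in G-MDSC and 6.40 to 7.78 in NN. The Rab13 effector Micall2 fell in G-MDSC on probe ILMN_2711772 (log2 change -2.15, adjusted p = 7.77e-08). On another Micall2 probe (ILMN_2793260) TAN was at least 4.55-fold higher than G-MDSC (adjusted p = 1.65e-07).

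In the tumour groups against NN the rises were led by activators of Rab5 and an effector of Rab11. Rabgef1, an activator of Rab5, read 10.22 to 10.52 (median 10.51) in NN, 10.68, 9.86, 9.87 and 10.02 in G-MDSC, 13.84, 13.81 and 12.87 on TAN replicates 1, 2 and 4 and 12.82, 12.58, 13.20, 12.93 and 12.55 in SM16, so all tumour arrays lay above all others (log2 change 3.08, adjusted p = 1.18e-10 in TAN against NN; log2 change 3.40, adjusted p = 6.61e-10 in TAN against G-MDSC). Rin1, another Rab5 activator, was at least 4.26-fold higher in TAN than in NN (log2 change 2.91, adjusted p = 2.41e-07). Rab11fip5, an effector of Rab11, rose in SM16 on both probes by 2.95 and 2.99 log2 units against NN, while Rab11a fell there. Both probes also lay above all NN arrays in TAN and G-MDSC, where Rab11a fell as well. Probe ILMN_1216781 read 9.07 to 9.45 in NN, 10.06 to 10.64 in G-MDSC and 11.19 to 11.34 in TAN. In G-MDSC the inactivators Tbc1d14 and Tbc1d9 rose (log2 change 2.10, adjusted p = 0.000676 and log2 change 1.82, adjusted p = 1.08e-05). Tbc1d9 was high in TAN too, at 7.29, 7.48 and 6.38 on replicates 1, 2 and 4 against 4.85 to 5.66 in NN. Tbc1d14 was 6.90 and 7.07 on NN replicates 6 and 7 and at most 5.52 on the other NN arrays. In SM16 against TAN Tbc1d8 and Tbc1d14 fell (log2 change -1.64, adjusted p = 0.000361 and log2 change -1.54, adjusted p = 0.0222). Tbc1d8 read 8.78, 8.78 and 7.38 on TAN replicates 1, 2 and 4 and 6.90, 6.60, 7.15, 6.64 and 6.08 in SM16. Tbc1d14 read 8.08, 7.68 and 6.44 on those TAN arrays and 6.09, 5.80, 6.28, 6.35 and 4.78 in SM16, so TAN replicate 4 lay just above the SM16 arrays for both. Rabac1, which binds prenylated Rabs, read 7.60, 7.46 and 13.45 on TAN replicates 1, 2 and 4 against 12.96 to 13.85 (median 13.56) in NN, and Rab3il1, an activator of Rab3a and Rab8, 4.95, 5.03 and 9.76 against 10.20, 10.46, 10.03, 10.33 and 10.42 in SM16. Both were called with all TAN arrays (log2 change -3.93, adjusted p = 0.000186 for Rabac1 in TAN against NN; log2 change 3.71, adjusted p = 0.000532 for Rab3il1 in SM16 against TAN), and TAN replicate 4 lay among the NN arrays for Rabac1 and just below the SM16 arrays for Rab3il1.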

How the data were processed

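Per the labels' protocols, total RNA was amplified and biotin-labelled with an Ambion Illumina TotalPrep kit from 250 ng. The protocols also describe fixed and embedded ectocervical biopsies, which are not the neutrophils of the titles, and nothing else was taken from them. Per the submitters' processing notes the arrays were read with GenomeStudio. The authors deposited a non-normalized table of 25697 probes with a mean bead intensity and a detection p-value for each array, and a normalized intensity table of 17004 probes, used here for the choice of probes and as an alternative.

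Background correction from the detection p-values (neqc, offset 16) and quantile normalization of the deposited intensity values, and all fits, used limma 3.58.1 in R 4.3.3. The 13945 probes whose detection p-value was below 0.01 on at least 3 arrays were tested, each by itself, with 4 groups in 1 model (15 residual degrees of freedom), a trended prior and Benjamini-Hochberg adjustment over all probes at 0.05. The scripts were tested on simulated data. Each array detected 9599 to 12492 of the 25697 probes that were not normalized and 51 to 64 of the 74 Rab probes. Precision is limited by the number of arrays.

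The members, roles, marker and regulator lists were chosen with earlier results of these data known. By rule the text names a list of Rab genes known from neutrophil or general traffic, the 5 largest called rises and falls of each comparison, genes whose probes were called in opposite directions, and the 2 regulators with the largest called change per direction and comparison. The other Rab genes were named to account for the family, after their values were seen. The alternatives were background, scaling and probe filters, 1 probe per gene, array weights, 2-group fits, the replicate block, the lowest-signal split, TAN replicate 4 alone (a group of 1 array, assumed to vary like the other groups) and each array left out. Probe sequences and chip identities are not used here.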

Additional observations from a re-analysis of the deposited data

Results flagged for a closer look

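Within groups of 4 to 10 arrays, 11 of 168 tests of the named Rab probes found 1 array far from the others, where chance gives about 1 in 20. Of the 11, 6 were on G-MDSC replicate 1. Its values, with the gap as a share of the group's range, were 6.11 for Rab4a (others 4.62 to 4.82, 0.87), 13.40 for Rab32 (others 13.76 to 13.81, 0.874), 12.05 for Rab35 (others 12.37 to 12.41, 0.886), 6.17 for the Rab1b probe ILMN_2693124 (others 9.97 to 10.62, 0.854), 9.86 for the Rab24 probe ILMN_2747912 (others 10.90 to 11.08, 0.851) and 6.96 for the Rab19 probe ILMN_2942082 (others 7.57 to 7.69, 0.836). Only Rab4a was high on that array and the other 5 were low. G-MDSC replicate 1 also had a summed intensity of B cell markers of 19200 (1160 to 1510 on the other 3) and of fibroblast markers of 2250 (224 to 300), and the part of these in the Rab values was not tested.

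G-MDSC replicate 4 was high for the Rab7 probe ILMN_1248907 (12.93 against 12.68 to 12.72, 0.857). NN replicate 1 was high for Rab15 (8.31 against 7.77 to 7.98, 0.621). SM16 replicate 3 was low for Rab11a (5.34 against 6.16 to 6.46, 0.736). SM16 replicate 5 was low for Rab11b (13.24 against 13.51 to 13.55, 0.862) and high for Rab33a (7.75 against 7.11 to 7.29, 0.722).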

How the results depend on the processing

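No count of called Rab probes moved by over 1.5 times without background correction, with the authors' normalized table, with no or a stricter filter, or with the replicate block, which gave 13 higher and 27 lower in TAN against NN, 18 and 25 in SM16 against NN, 11 and 12 in G-MDSC against NN, 13 and 29 in TAN against G-MDSC and 12 and 12 in SM16 against TAN. The replicate numbers are not known to pair samples: over 22 pairs of same-numbered arrays the correlations of deviations ran from -0.326 to 0.255, with 6 over 0.1. Median scaling gave 22 higher and 18 lower in TAN against NN, 18 lower in TAN against G-MDSC, and 5 higher and 23 lower in SM16 against TAN. It turned the TAN against NN changes of Rab32 (0.17), Rab8b (0.19), Rab11b (0.33), Rab35 (0.12) and Rab31 (0.67), Rab8b in TAN against G-MDSC (0.074), and, in SM16 against TAN, Rab8b (-0.31) and the Rab24 probes ILMN_2624647 (-0.55) and ILMN_2946440 (-0.65). With 1 probe per gene 6 of 47 were higher in G-MDSC than in NN and 20 of 47 lower in TAN than in G-MDSC. Beside them stood 22.5% and 25.6% of all genes tested. These counts have a smaller total than the 68 probes, so a lower count is no change of share by itself. Fits of 2 groups called 6 higher and 3 lower in SM16 against TAN. Array weights, whose estimation stopped early, gave 24 higher in G-MDSC against NN, beside 34% of all probes. They gave 21 lower in SM16 against TAN, beside 37.2% of all probes, and -0.85 for the Rab34 probe ILMN_3029294 in TAN against NN. The lowest-signal split as a block left 4 higher in G-MDSC against NN and 14 lower in TAN against G-MDSC, beside 14% and 18.3% of all probes. NN replicates 6 and 7 alone left 2 higher and 8 lower in G-MDSC, beside 11.5% and 13.3% of all probes. TAN replicate 4 alone left 3 higher and 0 lower in SM16 against TAN, beside 3.5% of all probes called. It turned the Rab7 probe ILMN_1248907 (0.11), Rab14 (-0.066) and the Rab8a probe ILMN_2928051 (0.20) in TAN against NN, Rab8b (0.061), that Rab7 probe (0.74) and Rab20 (0.95) in TAN against G-MDSC, and Rab11a (-0.12), the Rab6a probe ILMN_1242802 (-0.066), Rab27a (0.037) and the Rab34 probes ILMN_2633777 (0.12) and ILMN_3029294 (-0.16) in SM16 against TAN. With 1 array left out, counts ran from 10 to 15 higher and 26 to 29 lower in TAN against NN, 15 to 18 and 24 to 27 in SM16 against NN, 9 to 14 and 11 to 13 in G-MDSC against NN, 13 to 16 and 27 to 34 in TAN against G-MDSC, and 8 to 19 and 3 to 21 in SM16 against TAN, where TAN replicates 1, 2 and 4 each moved a count by over 1.5 times. In SM16 against TAN 11.4% to 25% of all probes were called higher and 12.4% to 36.9% lower over the same fits. Without TAN replicate 4 the Rab34 probe ILMN_3029294 was -0.86 in TAN against NN (and 1.204 without TAN replicate 1). Among the changes of the named probes, calls lost without a turn of sign were counted. They numbered 31 with the lowest-signal split as a block, 26 with median scaling and 22 with fits of 2 groups. They numbered 18 with the NN arrays of like lowest signal (replicates 6 and 7 for G-MDSC, 1 to 5 for TAN and SM16). Fewer were lost with the replicate block (10), no filter (9), no background correction (7), the authors' table (6) and array weights (4). With 1 probe per gene or the stricter filter 0 were lost, and over the 19 fits with 1 array left out 107. TAN replicate 4 alone also lost calls. Calls whose change turned sign are not in these counts. The settings cover different numbers of changes, so the counts are not set against each other. The causes were not tested. The Rab8b probe is ILMN_1223029 throughout. Members detected on few arrays (Rab1b ILMN_2614713, Rab39b, Rab25) are limited by signal over background.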
